A study of Mus musculus with 40 samples.

Results

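Kidneys of mice given 30 µg/kg TCDD were compared with kidneys of mice given 10 µg/kg, the 2 highest of 7 doses in a series of 40 libraries. The 10 libraries were chosen by the labelled dose alone, 5 at each dose, and no vehicle library entered the comparison. TCDD is 2,3,7,8-tetrachlorodibenzo-p-dioxin, a persistent pollutant and a potent ligand of the aryl hydrocarbon receptor (AhR). All 10 animals were male C57BL/6NCrl mice, 30 days old at the first gavage. They were dosed every 4 days for 28 days, 7 gavages of 0.1 mL in all, and were 58 days old when the right kidney was taken. The sesame oil carrier was common to both groups, and a separate group of 5 received that oil without TCDD. Each library was made from bulk kidney tissue, so fewer cells of a type and less RNA per cell cannot be told apart. Age, strain, sex and schedule were the same in both groups, and the labels name no genetic modification. The question the comparison addresses is whether the top dose gives a kidney transcriptome that differs from that at the dose below it.

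TCDD enters the cell and binds the AhR, a transcription factor held in the cytoplasm by chaperones. The bound receptor moves to the nucleus, pairs with ARNT and binds short DNA elements near its target genes. Its best known targets encode cytochrome P450 enzymes of the CYP1 family, and the receptor's repressor AHRR and the ADP-ribosyltransferase TIPARP, which both restrain it, are targets too. PPARA, a nuclear receptor for fatty acids, drives fatty acid oxidation, and in the male mouse kidney androgens keep many proximal tubule transporters and enzymes at a high level. Interferon drives a separate set of genes, among them guanylate-binding proteins and the machinery of antigen presentation.

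Promoters of 4 AhR target genes and 2 interferon-inducible genes are shown because the results turn on these gene groups. Each run is the 250 bases before the gene's start on the gene's strand, 5′ to 3′, from RefSeq on build GRCm38.p6. In the first 4, capitals mark the core of the AhR response element, GCGTG, or CACGC where it lies on the other strand. In the last 2, capitals mark the interferon-stimulated element, which is GAAA, any 2 bases and GAAA, or TTTC, any 2 bases and TTTC where it lies on the other strand. The Cyp1a1 window (chr9:57697363-57697612, plus strand) holds 1 match, 50 bases before the start. The Cyp1b1 window (chr17:79715062-79715311, minus strand) holds 1, at 72 bases. The Ahrr window (chr13:74292332-74292581, minus strand) holds 3, at 103, 78 and 23 bases. The Tiparp window (chr3:65528197-65528446, plus strand) holds 1, at 166 bases. The Irgm1 window (chr11:48871421-48871670, minus strand) holds 2 that overlap, at 21 and 15 bases, and the Gbp2 window (chr3:142620413-142620662, plus strand) holds 1, at 50 bases.
Cyp1a1: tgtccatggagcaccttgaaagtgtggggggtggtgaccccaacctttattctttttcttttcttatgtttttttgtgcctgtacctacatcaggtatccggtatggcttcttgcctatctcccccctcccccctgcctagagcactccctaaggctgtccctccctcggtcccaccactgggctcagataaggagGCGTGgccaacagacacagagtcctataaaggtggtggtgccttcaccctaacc
Cyp1b1: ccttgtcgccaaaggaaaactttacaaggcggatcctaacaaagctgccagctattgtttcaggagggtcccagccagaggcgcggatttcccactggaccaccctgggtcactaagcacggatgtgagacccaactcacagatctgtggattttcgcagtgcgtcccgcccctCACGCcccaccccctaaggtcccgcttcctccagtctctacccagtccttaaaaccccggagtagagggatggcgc
Ahrr: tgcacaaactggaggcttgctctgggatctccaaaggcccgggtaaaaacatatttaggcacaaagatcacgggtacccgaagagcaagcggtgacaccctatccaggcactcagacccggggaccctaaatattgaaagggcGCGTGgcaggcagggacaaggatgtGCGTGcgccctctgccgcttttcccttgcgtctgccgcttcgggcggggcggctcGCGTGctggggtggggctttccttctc
Tiparp: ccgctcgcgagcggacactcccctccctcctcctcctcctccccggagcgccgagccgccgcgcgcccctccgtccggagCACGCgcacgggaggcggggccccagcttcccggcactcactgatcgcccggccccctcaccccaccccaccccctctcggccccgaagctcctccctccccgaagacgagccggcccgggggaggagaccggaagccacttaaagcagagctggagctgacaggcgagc
Irgm1: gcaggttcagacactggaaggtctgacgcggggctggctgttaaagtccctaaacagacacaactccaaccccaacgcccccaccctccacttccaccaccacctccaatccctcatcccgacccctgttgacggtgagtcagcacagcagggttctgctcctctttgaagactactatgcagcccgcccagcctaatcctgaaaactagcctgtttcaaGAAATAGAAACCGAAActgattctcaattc
Gbp2: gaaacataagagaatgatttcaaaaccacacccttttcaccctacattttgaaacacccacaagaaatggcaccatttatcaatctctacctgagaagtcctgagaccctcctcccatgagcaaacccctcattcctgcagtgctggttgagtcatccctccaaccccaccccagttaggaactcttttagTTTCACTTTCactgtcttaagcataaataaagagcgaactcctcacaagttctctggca
On both strands, GCGTG occurred in 9250 of 32851 promoter windows of this length (28.2%), and in 10 of the 16 windows found for a fixed list of AhR targets (62.5%). The interferon-stimulated element occurred in 978 of all windows (2.98%) and in 10 of the 11 windows found for guanylate-binding proteins and immunity-related GTPases (90.9%). It occurred in 11 of 21 windows of type I interferon response genes (52.4%), in 3 of 16 of MHC class I presentation genes (18.8%) and in 1 of 8 of MHC class II presentation genes (12.5%). A match is a description of the letters and no evidence that a factor bound there.

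Depth was similar in both groups, from 15278423 to 24017319 gene counts per library at 30 µg/kg and from 17758574 to 25063646 at 10 µg/kg. Replicate numbers follow the order of deposit and pair no animals across groups. The kidneys expressed the defining genes of the nephron at both doses, for example Lrp2 (proximal tubule) at 2234 to 3858 CPM (gene counts per 1000000 scaled counts of the library) at 30 µg/kg and 2471 to 2964 at 10 µg/kg, and Umod (thick ascending limb) at 719 to 1367 and 630 to 1423. Of 8 technical measures, the share of unmapped reads differed most, at 1.69% to 2.60% against 1.52% to 1.92% (two-sided exact permutation p = 0.0397, adjusted p = 0.302, 5 libraries each, smallest possible p 0.00794). Markers of lymphocytes summed to 15.5 to 27.3 CPM against 20.9 to 27.8, and those of skeletal muscle to 17.5 to 25.7 against 15.7 to 28.0, with 3 of 12 muscle markers at 0 in all 10 libraries. Other tissues were less even. Fat markers summed to 1284 to 3742 CPM against 1295 to 1835, with replicate 3 at 30 µg/kg the highest, and liver transcripts to 172 to 334 against 205 to 232.

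The libraries at 30 µg/kg differed from one another far more than those at 10 µg/kg. The median SD of log2 CPM over 15693 genes was 0.27 at 30 µg/kg and 0.18 at 10 µg/kg, and 73.0% of genes were more spread at the higher dose (66.9% without replicate 3 at 30 µg/kg). Fitted to each group alone, the biological coefficient of variation was 26.2% at 30 µg/kg and 14.1% at 10 µg/kg. In the other 6 groups of the series it lay between 13.2% and 18.0%. The first principal component held 30.0% of the variance, and libraries from 10 µg/kg spanned -27.1 to -13.7 along it. Replicate 1 at 30 µg/kg, at -19.6, lay among them. Replicates 2 and 5 followed at 0.465 and 9.37, and replicates 4 and 3 stood apart at 35.3 and 66.9. The second component held 16.1%, and libraries from 10 µg/kg spanned -6.55 to 11.9 along it. At 30 µg/kg replicates 1 to 3 lay at 0.995, 36.9 and 25.65, and replicates 4 and 5 at -38.0 and -25.3. The sample numbers in the titles were 25 to 27 for the former and 52 and 53 for the latter. The part of these number runs in the spread was not tested.

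No gene passed the test between the doses. In edgeR's quasi-likelihood fit to the 10 libraries, 0 of 15693 genes (0%) had a Benjamini-Hochberg adjusted p under 0.05, and 1567 (9.99%) had an unadjusted p under 0.05, 847 of them higher and 720 lower at 30 µg/kg. On the same libraries DESeq2 called 184 genes (1.17%), 91 higher and 93 lower, and limma voom with library weights called 17. Without replicate 1 at 30 µg/kg edgeR called 223 genes, 98 higher and 125 lower, without replicate 3 it called 5, and without any 1 library at 10 µg/kg it called 0. In all 15693 genes, 271 (1.73%) had groups that did not overlap in CPM, 111 with 30 µg/kg above (0.707%) and 160 below (1.02%).

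A fit to all 40 libraries, in which the 8 dose groups share 1 estimate of the spread, called 469 of 17345 genes (2.7%) for 30 against 10 µg/kg, 206 higher (1.19%) and 263 lower (1.52%). The estimate it shares is drawn mostly from groups tighter than the 30 µg/kg group, so its p-values for this contrast can be too small. On simulated counts with the wider spread at 30 µg/kg, this fit made more false calls than its threshold of 0.05 allows and the 10-library fit did not, so a call of the 40-library fit alone is weak evidence for a gene. All 457 of the 469 that the 10-library fit also tested had the same direction there, and 444 had an unadjusted p under 0.05. Both fits take this contrast from the same 10 libraries, so that agreement is no independent support for the calls. Of the 469, 136 had groups that did not overlap, beside 1.73% of the genes in the 10-library fit. Leaving out replicate 1 at 30 µg/kg took the 40-library count to 1194, and leaving out replicate 3 took it to 146. Weighting each dose group by its own spread (limma voom, 40 libraries) called 319 genes, 277 of them among the 469. Below, fold changes and adjusted p are from edgeR on 10 libraries unless the 40-library fit is named.

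**Figure D1:**
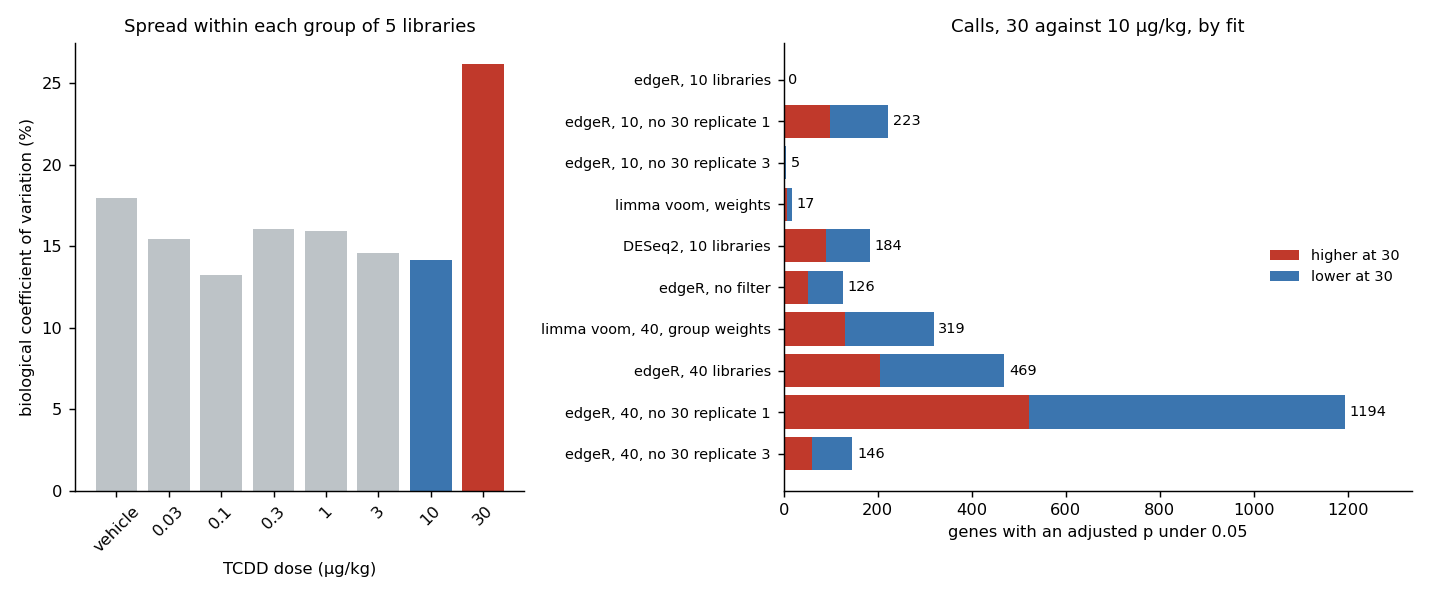
Left, biological coefficient of variation in percent (edgeR, each group of 5 libraries fitted alone) by dose; right, number of genes with an adjusted p under 0.05 for 30 against 10 µg/kg in 10 fits, higher in red and lower in blue. The 30 µg/kg group stands at 26.2% against 13.2% to 18.0% in the others, and the calls run from 0 to 1194 with the libraries and the fit used.

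Targets of the AhR were higher at 30 than at 10 µg/kg on balance, with little overlap between the groups for the most responsive genes. Cyp1a1, which oxidises planar aromatic compounds, had 2881, 2087, 2072, 2993 and 2642 CPM in replicates 1 to 5 at 30 µg/kg and 1308, 1593, 1643, 1642 and 1650 at 10 µg/kg. Every library at the higher dose was above every library at the lower one, and replicate 3, which stood furthest apart over all genes, was the lowest of its group. The log2 fold change was 0.70 ± 0.12 (SE, n = 5 and 5, adjusted p = 0.0653 in edgeR), a ratio of means of 1.62, and the adjusted p was 0.0492 in the 40-library fit. Vehicle libraries held 1.15 to 4.00 CPM, so both doses were far above background, and the group means of Cyp1a1 along the series were 2.37, 2.16, 5.51, 24.7, 99.3, 294, 1567 and 2535 CPM from vehicle to 30 µg/kg.

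Cyp1b1, a CYP1 enzyme that also acts on oestrogens, had 179, 171, 190, 207 and 191 CPM at 30 µg/kg and 120, 162, 117, 128 and 143 at 10 µg/kg. The groups did not overlap, and the difference was 0.50 ± 0.10 (log2, SE, n = 5 and 5; edgeR adjusted p = 0.106, 0.0446 in the 40-library fit). Aldh3a1, an aldehyde dehydrogenase, had 5.39 to 9.72 CPM against 2.26 to 4.90, again without overlap (log2 fold change 0.96 ± 0.23, adjusted p = 0.213, 0.0831 in the 40-library fit). Gsta2, a glutathione transferase, had 302, 367, 657, 498 and 441 CPM against 173, 230, 187, 234 and 204 (1.15 ± 0.18, adjusted p = 0.0653, 0.000833 in the 40-library fit). For the 2 receptor repressors the groups overlapped. Ahrr was at 10.7 to 18.7 CPM against 9.35 to 13.1 (adjusted p = 0.284, 0.406 in the 40-library fit). Tiparp was at 38.0 to 48.4 CPM against 28.3 to 39.6 (adjusted p = 0.321, 0.0591 in the 40-library fit). Nqo1, a quinone reductase, overlapped as well, at 96.4 to 264 CPM against 111 to 144 (log2 fold change 0.43, adjusted p = 0.555, 0.16 in the 40-library fit). None of these AhR targets, Cyp1a1 included, passed in the 10-library fit.

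Over the 16 tested members of the AhR target list, none was called in the 10-library fit, 7 had an unadjusted p under 0.05 with a higher level at 30 µg/kg (5.40% of all genes did) and 0 with a lower one. The median log2 fold change was 0.44, beside 0.01 over all genes, and 14 were positive, beside 52.8% of all genes. In the 40-library fit 3 were called higher and 0 lower (1.19% and 1.52% of all genes). In 4 the groups did not overlap, all with 30 µg/kg above, beside 0.707% of all genes. Summed over the list, the libraries held 3185 to 4529 CPM at 30 µg/kg, 2152 to 2598 at 10 µg/kg and 494 to 578 with vehicle. At both doses most of the sum was Cyp1a1, at 2072 to 2993 CPM and 1308 to 1650 CPM, so the sum largely repeats that gene. The median was 0.49 without replicate 1 at 30 µg/kg and 0.47 without replicate 3. Cyp1a2 was at or near the limit of detection, at 0.617 to 1.59 CPM against 0 to 6.33, where the 6.33 was 1 library at 10 µg/kg, replicate 5.

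**Figure D2:**
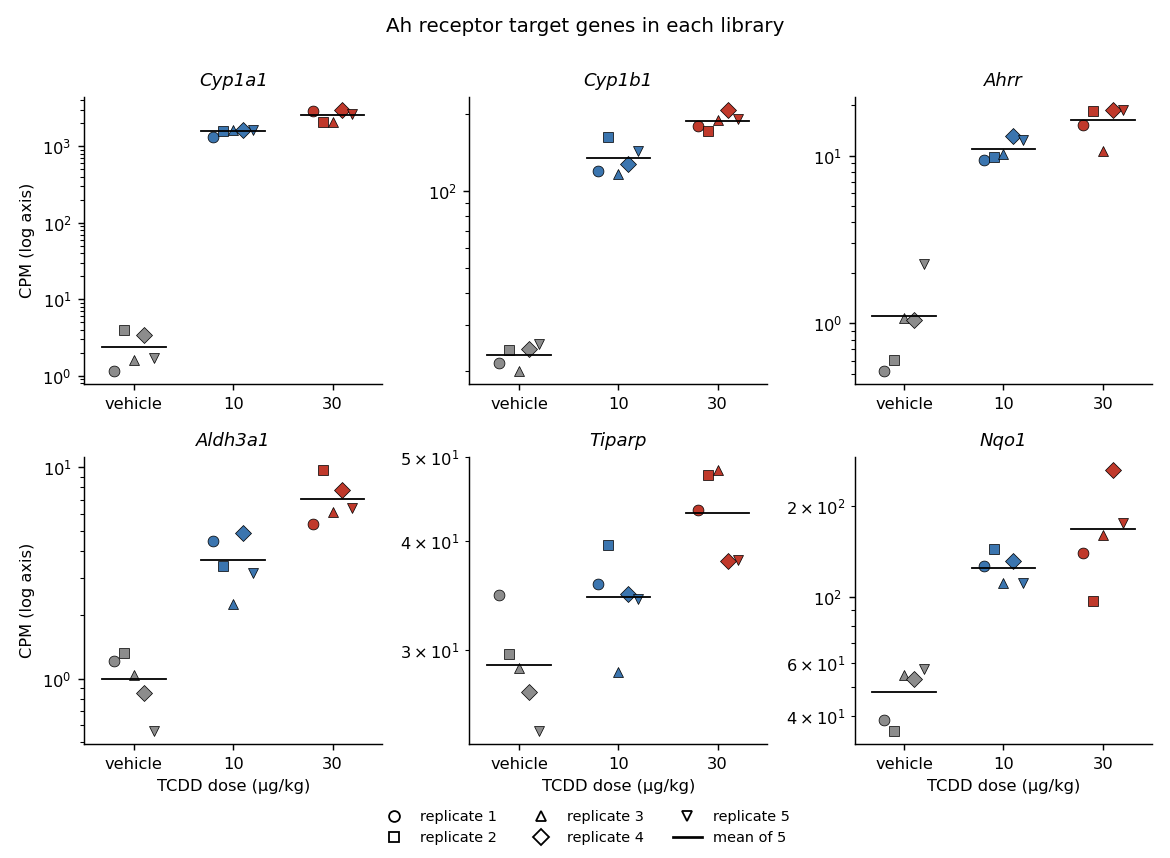
CPM (log axis) of 6 AhR target genes in each library with vehicle, 10 and 30 µg/kg TCDD; each symbol is 1 replicate and the bar is the mean of 5. For Cyp1a1, Cyp1b1 and Aldh3a1 all 5 libraries at 30 µg/kg lie above all 5 at 10 µg/kg, and for Ahrr, Tiparp and Nqo1 the groups overlap.

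The receptor itself did not move with dose by more than its spread. Ahr was at 7.05 to 12.0 CPM against 9.33 to 11.5 (log2 fold change -0.03 ± 0.15) and its partner Arnt at 44.1 to 57.2 against 41.1 to 52.2 (0.02 ± 0.09), both with signs that turn when single libraries are left out. Of 10 genes for the receptor, its partners and its chaperones, 0 were called in either fit and the median was -0.06. Atp12a, the non-gastric proton pump, is not a classical target but was at 0 to 0.920 CPM with vehicle and 13.2 to 24.1 at 10 µg/kg. At 30 µg/kg it had 20.9, 36.0, 68.9, 46.6 and 31.1 CPM, with 1 library inside the lower group's range (1.10 ± 0.30, adjusted p = 0.304, 0.101 in the 40-library fit).

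Many genes of glutathione conjugation and quinone reduction are targets of the stress-responsive factor NRF2, and of these Gsta2 and Gsta4 were among the 10 genes with the lowest adjusted p of the comparison. Gsta4, which conjugates aldehydes from oxidised lipids, had 64.6, 88.9, 129, 137 and 94.8 CPM at 30 µg/kg and 49.6, 48.4, 40.6, 50.4 and 43.5 at 10 µg/kg. There was no overlap, and the difference was 1.16 ± 0.18 (log2, SE; edgeR adjusted p = 0.0653, 0.000111 in the 40-library fit). Abcc4, an efflux pump for organic anions, had 149, 197, 576, 448 and 344 CPM against 97.4, 151, 91.3, 106 and 103, where replicate 1 at 30 µg/kg lay just inside the lower group's range (1.66 ± 0.37, adjusted p = 0.268, 0.000131 in the 40-library fit). Cbr1, a carbonyl reductase, had 92.3, 97.1, 391, 518 and 305 CPM against 58.5 to 114, so replicates 1 and 2 overlapped with 10 µg/kg (1.89 ± 0.53, adjusted p = 0.327). Mgst1, a membrane-bound glutathione transferase, had 59.1, 81.3, 229, 194 and 159 CPM against 52.6 to 73.6, with replicate 1 inside the lower range (1.26 ± 0.36, adjusted p = 0.335). The haem-degrading enzyme Hmox1 was at 293 CPM in replicate 3 and 112 in replicate 4, and at 35.2 to 66.3 in the other 3, against 39.3 to 53.8 (1.29 ± 0.58, adjusted p = 0.509).

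Among 22 tested NRF2 targets, none was called in the 10-library fit, 6 had an unadjusted p under 0.05 and were higher and 1 was lower (5.4% and 4.59% of all genes), and the 40-library fit called the same numbers, 6 and 1 (1.19% and 1.52% of all genes). The member called lower in the 40-library fit was Me1, the NADP-linked malic enzyme, at 340 to 529 CPM against 507 to 576. The median log2 fold change was 0.18 and 17 were positive. The 6 members called higher in the 40-library fit were Gsta2, Gsta4, Mgst1, Abcc4, Hmox1 and the carbonyl reductase Cbr3. Of the NRF2 list, 4 members also belong to the AhR list. Over 30 glutathione, glucuronic acid and sulfate transferases the median was 0.07. Ugt1a2, a glucuronosyltransferase, had 4.54, 9.27, 67.9, 42.7 and 21.9 CPM against 0.916 to 2.31, without overlap (3.99 ± 0.78, adjusted p = 0.213, 0.000162 in the 40-library fit). Ugt1a10 had 9.48, 6.5, 29.9, 42.8 and 55.3 CPM against 2.31 to 9.89, with replicates 1 and 2 inside the lower range (2.46 ± 0.68, adjusted p = 0.321). They share 59.3% and 58.1% of their exonic bases with other genes on the same strand. A read lying over more than 1 gene is counted as ambiguous and given to no gene, so these counts can miss reads from the shared bases.

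Genes of fatty acid oxidation showed a wide range between animals given the same dose. Cyp4a14, a fatty acid hydroxylase, had 141, 171, 3390, 2002 and 623 CPM in replicates 1 to 5 at 30 µg/kg and 33.5, 132, 34.7, 146 and 50.0 at 10 µg/kg. Replicates 2 to 5 were above every 10 µg/kg library, with replicate 2 the nearest, and replicate 1 was within their range. The log2 fold change of 4.01 ± 1.07 had an adjusted p of 0.311 (edgeR, n = 5 and 5), and 0.000855 in the 40-library fit. Pdk4, the kinase that shuts off pyruvate dehydrogenase, had 32.9, 79.1, 720, 494 and 111 CPM against 35.5 to 74.8 (2.53 ± 0.84, adjusted p = 0.395). Cyp4a10 had 387, 375, 1513, 1430 and 738 CPM against 268 to 472 (1.33 ± 0.45, adjusted p = 0.395). Acot1, an acyl-CoA thioesterase, had 116, 118, 401, 384 and 159 CPM against 107 to 150, with replicates 1 and 2 inside the lower group's range (0.91 ± 0.41, adjusted p = 0.506). For Cyp4a14 and Pdk4 the 5 animals stood in 1 order, replicate 3 highest, then 4, 5, 2 and 1, which is also their order on the first principal component, an axis computed from these and the other genes.

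Hadha and Hadhb, the subunits of the trifunctional protein, were at 289 to 530 against 261 to 319 CPM and 249 to 442 against 219 to 260, with a log2 fold change of 0.52 ± 0.14 and 0.50 ± 0.13 (adjusted p = 0.284 and 0.259; 0.000833 and 0.000966 in the 40-library fit). Acot3, a related thioesterase, had 19.8, 20.0, 58.6, 53.5 and 28.5 CPM against 15.0, 14.2, 11.9, 17.3 and 18.1 (1.24 ± 0.34, adjusted p = 0.301). It was without overlap, which was a condition for naming it. Hacl1, which cleaves branched fatty acids in peroxisomes, is outside the list and had 8.51, 4.92, 18.2, 18.3 and 9.46 CPM against 2.7 to 3.71 (1.97 ± 0.32, adjusted p = 0.0653, 0.000162 in the 40-library fit), and 31.1% of its exonic bases are shared with another gene on its strand. Acadm, the medium-chain dehydrogenase, lay the other way, at 614 to 712 CPM against 682 to 866 (log2 fold change -0.23). Crot and Slc27a2, fatty acid genes outside the list that are described below, were lower too, both without overlap (-0.58 ± 0.11 and -0.40 ± 0.10). Ppara itself was at 30.8 to 95.9 CPM against 31.6 to 50.5 (0.58 ± 0.30, adjusted p = 0.569).

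Of the 32 tested PPARA targets and oxidation genes, none was called in the 10-library fit. Unadjusted, 15 were higher and 1 lower (5.40% and 4.59% of all genes), 30 had a positive log2 fold change and the median was 0.50. The 40-library fit called 15 higher and 0 lower (1.19% and 1.52% of all genes). Summed over the list, replicates 1 to 5 at 30 µg/kg held 6327, 6771, 18705, 15147 and 7890 CPM, and the 10 µg/kg libraries 6293 to 7495, much like the 5678 to 6548 with vehicle. The median was 0.31 without replicate 3 and 0.58 without replicate 1. A list of gluconeogenesis and fasting genes, which shares Pdk4, followed a similar course, with a median of 0.43 over 20 genes that became 0.16 without replicate 3. Its sum was 11195 CPM in replicate 3 and 3790 to 6991 in the other 4, against 4256 to 5008 at 10 µg/kg. Txnip, an inhibitor of thioredoxin, had 180, 282, 1074, 844 and 342 CPM against 207 to 298 (1.24 ± 0.49, adjusted p = 0.458).

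**Figure D3:**
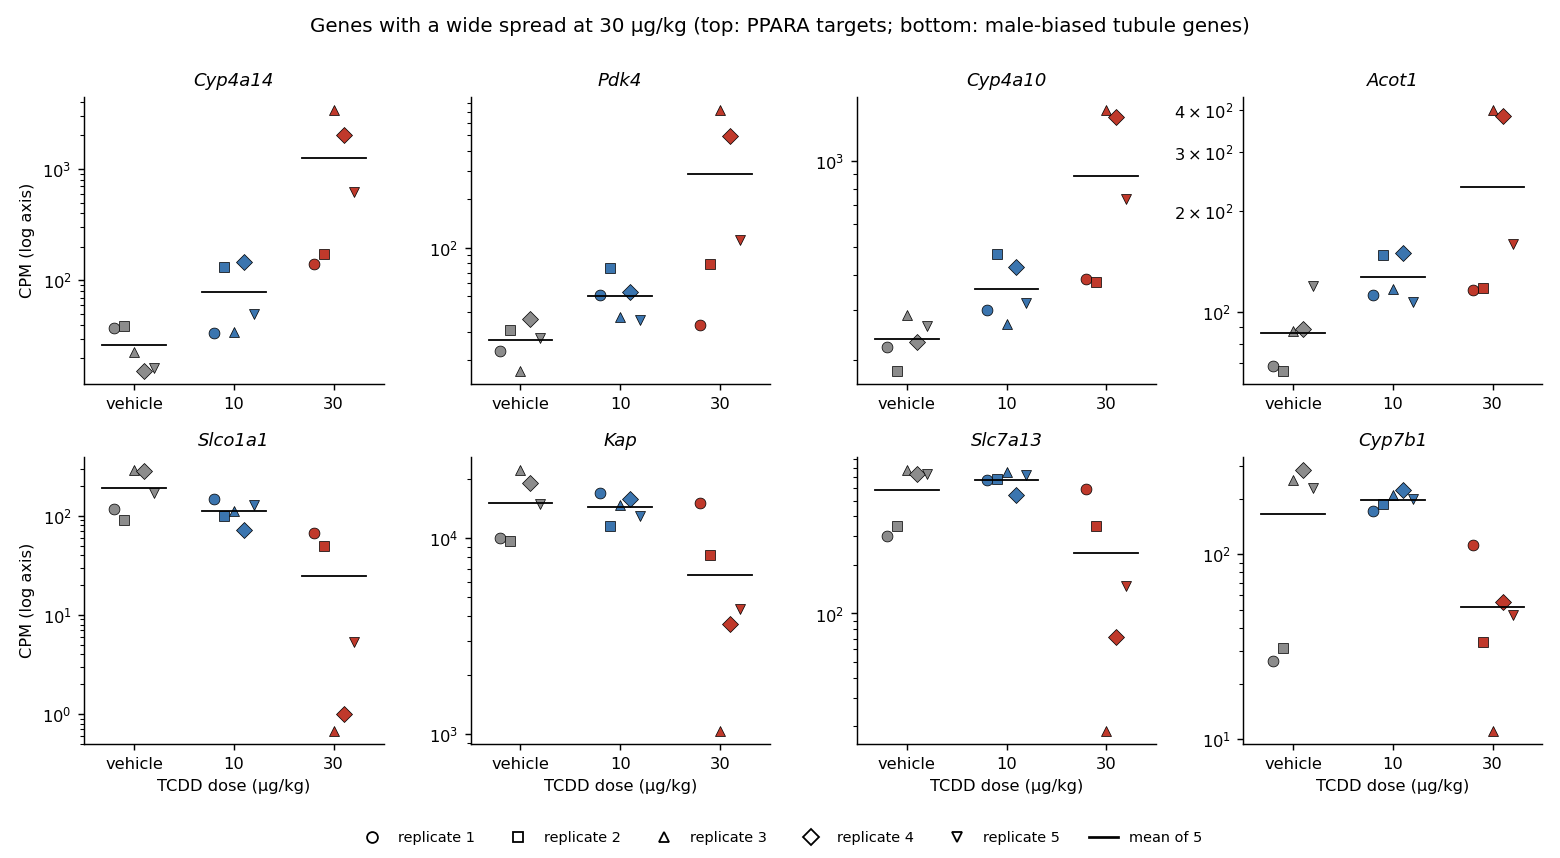
CPM (log axis) of 4 fatty acid metabolism genes (top) and 4 male-biased tubule genes (bottom) in each library with vehicle, 10 and 30 µg/kg TCDD; each symbol is 1 replicate and the bar is the mean of 5. At 30 µg/kg replicates 3, 4 and 5 are high in the top row and low in the bottom row, and replicates 1 and 2 lie closer to the 10 µg/kg libraries except for replicate 2 in Cyp7b1. Vehicle replicates 1 and 2 are the lowest vehicle libraries for all 4 genes of the bottom row.

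Genes that androgens maintain in the male kidney were lower at 30 µg/kg on balance, most of all in replicates 3, 4 and 5. Kap, the kidney androgen-regulated protein, had 15195, 8204, 1037, 3627 and 4346 CPM at 30 µg/kg and 17116, 11601, 14800, 15827 and 13068 at 10 µg/kg. Replicate 1 lay within the lower-dose range and the other 4 below it (-1.15 ± 0.60 on the log2 scale, adjusted p = 0.571, 0.0635 in the 40-library fit). Slco1a1, an organic anion transporter, had 66.8, 50.0, 0.677, 1.01 and 5.38 CPM against 147, 100, 113, 71.3 and 129, without overlap (-2.17 ± 1.06, adjusted p = 0.551, 0.0345 in the 40-library fit). Pzp, a secreted protease inhibitor, had 9.36, 15.1, 0.542, 1.23 and 1.37 CPM against 39.1, 23.4, 33.0, 20.9 and 35.5, also without overlap (-2.45 ± 0.79, adjusted p = 0.38). Timd2, a ferritin receptor, had 44.3, 52.4, 31.3, 27.5 and 34.5 CPM against 51.0 to 68.1 (-0.64 ± 0.15, adjusted p = 0.213, 0.000833 in the 40-library fit).

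Transcripts of the S3 segment, the last part of the proximal tubule, were lower on balance as well. Slc7a13, an amino acid transporter of that segment, had 590, 348, 18.8, 71.3 and 149 CPM against 674, 681, 755, 539 and 716, with replicate 1 inside the lower-dose range (-1.51 ± 0.77, adjusted p = 0.569, 0.0436 in the 40-library fit). Cyp7b1, an oxysterol hydroxylase, had 113, 33.6, 11.1, 55.5 and 47.3 CPM against 172, 187, 209, 224 and 199, without overlap (-1.91 ± 0.50, adjusted p = 0.304, 0.0111 in the 40-library fit). Acy3, an aminoacylase, had 1309, 1096, 304, 442 and 505 CPM against 1439 to 1843 (-1.13 ± 0.39, adjusted p = 0.412). Slc27a2, a fatty acid transporter, differed more evenly, at 2293 to 2973 CPM against 3301 to 3975 with no overlap (-0.40 ± 0.10, adjusted p = 0.224).

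Of 25 androgen-responsive genes tested, 0 were called in the 10-library fit and 23 had a negative log2 fold change, with a median of -0.56. Unadjusted, 9 were lower and 2 higher (4.59% and 5.4% of all genes), and the 40-library fit called 10 lower and 1 higher (1.52% and 1.19% of all genes), the last being Gsta4. Of 16 S3 genes, 3 of them also in the androgen list, 15 were negative (median -0.50), 7 were lower unadjusted and 0 higher, and the 40-library fit called 7 lower and 0 higher. The androgen list summed to 27900, 21648, 8017, 10291 and 11283 CPM at 30 µg/kg and to 24709 to 32729 at 10 µg/kg. The S3 list summed to 5178 to 9016 CPM against 9983 to 11955. Medians without replicate 3 at 30 µg/kg were -0.49 and -0.40, and without replicate 1 they were -0.71 and -0.59.

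Vehicle libraries were not uniform for these 2 lists. Vehicle replicates 1 and 2 held 7359 and 7978 CPM over the S3 list and the other 3 held 11825 to 12600, so 2 untreated kidneys lay within the range of the 30 µg/kg group. Over the androgen list vehicle replicates 1 and 2 held 26163 and 25465 CPM, within the ranges of both doses. The other 3 held 30751 to 40581. For Slc7a13 vehicle replicates 1 to 5 had 302, 350, 777, 734 and 725 CPM, and for Cyp7b1 26.4, 31.3, 254, 288 and 228. The part this spread among untreated kidneys has in the contrast was not tested. Markers of the S1 and S2 segments, the earlier proximal tubule, had a median of 0.30 and summed to 19370 to 33145 CPM at 30 µg/kg against 23343 to 25886, with vehicle replicates 1 and 2 at 32136 and 32255 and the others at 25535 to 26094.

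Interferon-inducible and antigen presentation genes lay lower at 30 than at 10 µg/kg on balance, though the sums of their 4 lists were above vehicle at both doses. Irgm1, an immunity-related GTPase, had 77.8, 77.1, 55.1, 72.1 and 64.1 CPM at 30 µg/kg and 114, 129, 93.2, 112 and 80.4 at 10 µg/kg, without overlap, with 35.5 to 46.6 in vehicle libraries (-0.60 ± 0.13, adjusted p = 0.142, 0.125 in the 40-library fit). Gbp2, a guanylate-binding protein, had 25.7, 26.1, 15.6, 22.4 and 25.9 CPM against 37.5, 37.8, 27.2, 35.6 and 28.6, and 7.21 to 11.0 with vehicle (-0.51 ± 0.14, adjusted p = 0.284). Isg15, a ubiquitin-like protein made under interferon, had 5.56, 6.10, 1.02, 3.31 and 6.41 CPM against 6.87 to 11.0 (-0.91 ± 0.35, adjusted p = 0.436). Vehicle libraries had 1.52 to 2.25 CPM of it, so replicate 3 at 30 µg/kg lay below them all. Stat2, which carries the interferon signal to the nucleus, was at 25.9 to 30.3 CPM against 32.0 to 40.3 (-0.37 ± 0.09, adjusted p = 0.213, 0.0438 in the 40-library fit). It was the 1 member of these 4 immune lists called in the 40-library fit.

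All 19 tested guanylate-binding proteins and immunity-related GTPases had a negative log2 fold change (median -0.60), and 13 had an unadjusted p under 0.05, where 4.59% of all genes were lower at that threshold. The group sums did not overlap, at 191 to 363 CPM against 379 to 647, and were 127 to 162 with vehicle. All 32 type I interferon genes were negative too (median -0.35, 8 unadjusted), as were all 19 MHC class I genes (median -0.28, 8 unadjusted) and all 10 MHC class II genes (median -0.55, 7 unadjusted). The members of a list are not independent of one another. The type I sum was 311 to 571 CPM against 521 to 632, with vehicle at 264 to 297. The class I sum was 1398 to 2596 CPM against 1843 to 2776, with vehicle at 1063 to 1178. The class II sum was 453 to 943 CPM against 703 to 1533, with vehicle at 283 to 328.

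Single libraries touched these counts but not the sign of the medians. Without replicate 3 at 30 µg/kg the medians were -0.47 (GTPases), -0.24 (type I), -0.22 (class I) and -0.44 (class II), 3 type I genes became positive, and 1 class I gene had an unadjusted p under 0.05. Without replicate 1 at 30 µg/kg they were -0.69, -0.38, -0.21 and -0.50. Class I genes with an unadjusted p under 0.05 also fell to 1 without replicate 1 at 10 µg/kg and to 2 without replicate 2 at 10 µg/kg. The class I genes H2-K1 (294 to 706 CPM against 421 to 687) and Psmb9 (6.36 to 12.1 against 9.47 to 14.1) overlapped widely. Cd74, the invariant chain of class II, had 240, 326, 165, 383 and 418 CPM against 724, 597, 391, 428 and 281 (-0.65 ± 0.31, adjusted p = 0.538). Markers of macrophages and other myeloid cells had a median log2 fold change of -0.06 over 24 genes. Unadjusted, 0 were higher and 3 lower (5.4% and 4.59% of all genes). Their sum was 302 to 402 CPM against 334 to 402, beside 156 to 218 with vehicle. Csf1r, the receptor for a macrophage growth factor, was at 31.2 to 70.9 CPM against 70.5 to 89.3 (log2 fold change -0.48), and the macrophage gene Adgre1 was at 6.39 to 13.8 against 8.34 to 9.88. The part of cell number in these differences was not tested.

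**Figure D4:**
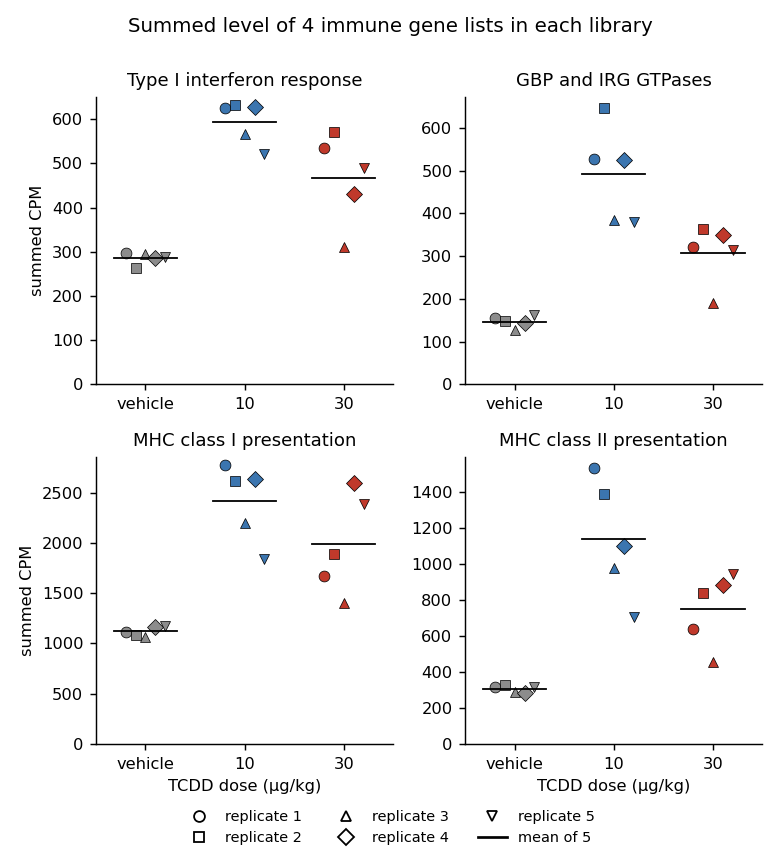
Summed CPM of 4 immune gene lists in each library with vehicle, 10 and 30 µg/kg TCDD; each symbol is 1 replicate and the bar is the mean of 5. The GTPase sums at 30 µg/kg (191 to 363) lie between vehicle (127 to 162) and 10 µg/kg (379 to 647), and in the other lists the 2 doses overlap.

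Outside the lists, several enzymes differed without overlap between the groups. Ldhd, the mitochondrial D-lactate dehydrogenase, had 525, 471, 284, 363 and 381 CPM at 30 µg/kg and 678, 659, 826, 691 and 760 at 10 µg/kg (-0.83 ± 0.14, adjusted p = 0.0653, 0.00039 in the 40-library fit), and 42.2% of its exonic bases are overlapped by a gene on the other strand. Apmap, a membrane arylesterase, had 120, 115, 178, 130 and 148 CPM against 88.2 to 97.0 (0.61 ± 0.11, adjusted p = 0.0653, 3.75e-05 in the 40-library fit). Sec14l3, a lipid-binding protein, had 4.71, 2.15, 0.881, 2.30 and 1.22 CPM against 7.01 to 12.2 (-2.13 ± 0.35, adjusted p = 0.0653). Nlrc4, an inflammasome sensor, had 1.76, 1.81, 1.22, 3.42 and 1.22 CPM against 4.76 to 5.78 (-1.52 ± 0.27, adjusted p = 0.0653). With Cyp1a1, Gsta2, Gsta4, Hacl1 and the predicted genes Gm10639 and Gm8947 these made up the 10 genes with the lowest adjusted p, all at 0.0653.

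Kynu, which degrades kynurenine, had 28.9, 49.2, 90.2, 45.9 and 48.5 CPM against 17.4 to 25.0 (1.30 ± 0.26, adjusted p = 0.2, 0.00471 in the 40-library fit). Gldc, of the glycine cleavage system, had 169, 203, 793, 340 and 213 CPM against 109 to 148 (1.44 ± 0.44, adjusted p = 0.356). Cbs, the first enzyme of transsulfuration, had 144, 145, 71.9, 115 and 116 CPM against 185 to 249 (-0.75 ± 0.16, adjusted p = 0.2). Bcat1, a branched-chain aminotransferase, had 43.5, 12.4, 3.73, 14.4 and 10.8 CPM against 46.2 to 64.0 (-1.72 ± 0.53, adjusted p = 0.361). In all 4 the groups were apart, with replicate 3 the most extreme at 30 µg/kg. For Kynu, Gldc and Bcat1 the lack of overlap was a condition for naming them and is no result.

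The kinase gene Mtor, a sensor of nutrients, had 194, 193, 145, 142 and 138 CPM against 240, 248, 294, 213 and 256, and no library crossed over (-0.61 ± 0.12, adjusted p = 0.106, 0.00039 in the 40-library fit). Spp1, which encodes osteopontin and belongs to the tubular injury list, had 760, 850, 980, 784 and 880 CPM against 586 to 668 with no overlap. Replicate 1 was the nearest (0.47 ± 0.09, adjusted p = 0.106, 0.000599 in the 40-library fit). Prom1, a membrane glycoprotein of tubule cells, had 187, 254, 273, 190 and 180 CPM against 137 to 154 (0.59 ± 0.12, adjusted p = 0.106). Crot, a peroxisomal carnitine acyltransferase, had 300, 223, 238, 249 and 190 CPM against 331 to 411 (-0.58 ± 0.11, adjusted p = 0.106). Selenop, the selenium carrier, was at 666 to 1426 CPM against 1421 to 1715 and met that range only in replicate 2 (-0.69 ± 0.18, adjusted p = 0.284).

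**Figure D5:**
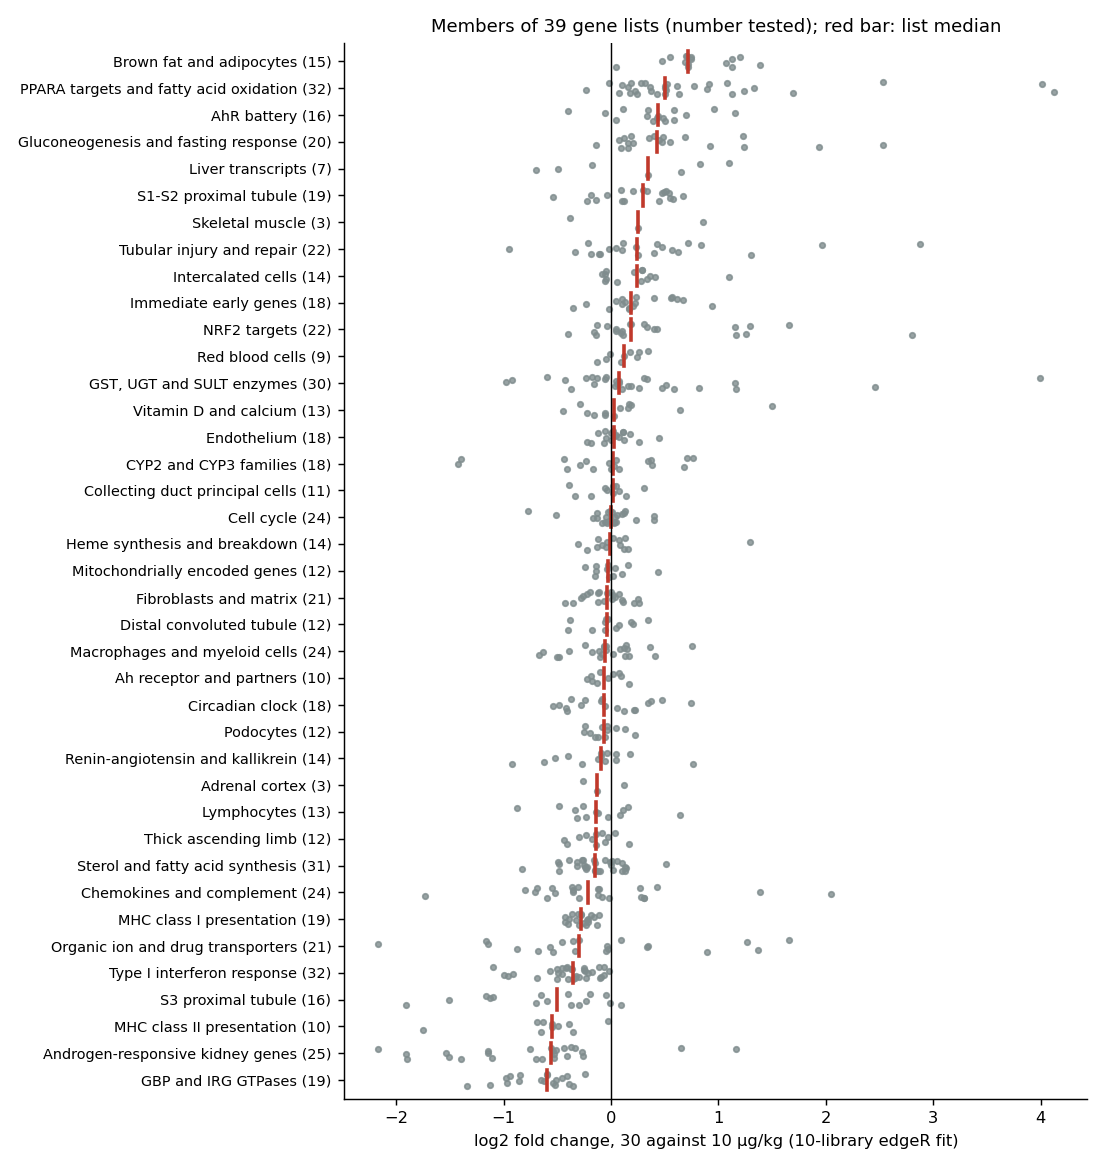
Log2 fold change of 30 against 10 µg/kg (10-library edgeR fit, x axis) for each tested member of 39 gene lists, 1 list a row with its number of members; red bars are list medians and the vertical line is 0. All dots lie left of 0 in the 4 immune lists, the median is 0.44 for AhR targets, 0.50 for PPARA targets and -0.56 for androgen-responsive genes, and no member passed the adjusted threshold.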

How the data were processed

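Bulk RNA-seq gene counts of 10 mouse kidney libraries were used, with 1 deposited table for each library. Per the submitters' processing notes, reads were checked with FastQC 0.11.7, trimmed with Trimmomatic 0.39 and aligned with STAR 2.7.3a, and DESeq2 is named too. The notes name the builds GRCm39 and mm10 with no role, and the gene annotation is not given in the sources used here. The deposited counts are whole, unnormalized, uniquely mapped reads without strand, so near-identical copies and genes that overlap on opposite strands are uncertain. The tables list 55359 gene identifiers, of which 52083 matched a symbol, and the other 3276 held 0.663% of counts.

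The 5 libraries at 30 µg/kg and the 5 at 10 µg/kg were compared with edgeR 4.0.16 (R 4.3.3, quasi-likelihood test with robust estimation, TMM scaling, filterByExpr), with Benjamini-Hochberg adjustment over 15693 genes and a threshold of 0.05. An SE is the size of the log2 fold change over the square root of F. CPM were scaled by TMM factors from all 40 libraries. Technical measures were compared by exact permutation. DESeq2 1.42.0, limma 3.58.1, other scalings and filters, all 40 libraries, the sense-strand column, a term for 2 runs of sample numbers in the titles and leave-one-out fits were alternatives. The fits were tested on simulated counts in which the 30 µg/kg libraries spread more than the rest, and signs were recovered in both. The share of false calls was under the threshold in the 10-library fit and well above it in the 40-library fit. Every simulated gene had the same spread within a group and varied independently, unlike the real genes. The simulation therefore does not give the rate of false calls in these data. No 2 replicates agreed within sampling noise (chi-square per degree of freedom 7.48 to 78.8). Nothing in the labels tells whether libraries of a group were prepared separately, so p-values measure the spread between these samples.

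The dose pair and 39 gene lists (697 genes, 695 matched) were chosen with earlier results of these data known. Named genes were a fixed set, then, among called genes, the 12 largest changes each way without overlap and with a mean of at least 1 CPM in the higher group, the 5 lowest p-values each way, and up to 4 members a list. The 10-library fit called none, so the last 3 parts were applied to the 40-library fit. Lack of overlap was thus fixed in advance for genes named only as largest changes, such as Acot3, Kynu, Gldc, Bcat1, Hacl1 and Sec14l3. The following were chosen after their values were seen: Irgm1, Gbp2, Isg15, H2-K1, Psmb9, Cd74, Nlrc5, Adipoq, Ucp1, Nlrc4, Prom1, Crot, Ppara, Lrp2, Umod, Csf1r, Adgre1, Me1, Cbr3 and Acadm. A few genes of the fixed set are not reported here. Promoter windows came from RefSeq, GRCm38.p6.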

Additional observations from a re-analysis of the deposited data

Results flagged for a closer look

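In 304 groups of 5 libraries examined (named genes, list sums and technical measures at both doses), 18 held 1 library whose gap to its nearest neighbour was over 0.71 of the group's range, and chance gives about 1 in 20, or 15. At 30 µg/kg, replicate 3 was highest for Arnt (57.2 CPM, next 47.2), Gldc (793, next 340), Aldh1a1 (42.5, next 24.4) and the fibrinogen chain Fgb (43.8, next 12.4), and lowest for Nlrc5 (6.91, next 11.4) and the GTPase list sum (191, next 315). Replicate 1 was highest for Bcat1 (43.5, next 14.4) and Smcp (1.36, next 0.28). Replicate 2 was highest for Fcamr (27.8, next 17.4), replicate 4 for Nlrc4 (3.42, next 1.81) and replicate 5 for total gene counts (24.0, next 17.7, in units of 1000000 counts).

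At 10 µg/kg, replicate 1 was lowest for Cyp1a1 (1308 CPM, next 1593) and for the AhR target sum (2152, next 2475). Replicate 3 was lowest for Tshr (1.81, next 2.60) and highest for Cbs (249, next 190) and the S3 sum (11955, next 10507). Replicate 2 was highest for Abcc4 (151, next 106) and replicate 5 for Cyp1a2 (6.33, next 0.768).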

How the results depend on the processing

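The count of called genes was 0 in the 10-library edgeR fit, and also 0 with RLE or upper-quartile scaling, a 1 CPM filter, no robust estimation or a term for runs of sample numbers. It was 184 with DESeq2 (91 higher, 93 lower), 469 with all 40 libraries (206, 263), 17 with limma voom (8, 9), 126 without a filter (52, 74) and 9 in the sense column (5, 4). Leaving out 1 library at a time gave 0 to 223 calls (0 to 98 higher, 0 to 125 lower), the most without replicate 1 at 30 µg/kg. In the 40-library fit, leaving out 1 library gave 146 calls (without replicate 3 at 30 µg/kg) to 1194 (without replicate 1), 60 to 521 higher and 86 to 673 lower. Other counts were 791 without replicate 2 and 209 without replicate 4 at 30 µg/kg, and 250 and 266 without replicates 1 and 3 at 10 µg/kg. Alternatives added after the data were seen gave 505 calls for the 35 TCDD libraries, 319 with group weights (130 higher, 189 lower) and 544 without replicates 1 and 3 at 30 µg/kg. The cause was not tested.

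Signs turned for 4 genes close to 0 or near the detection limit. Cyp1a2 was 0.72 with limma voom, 0.27 with the run term and -0.72 to 1.70 without 1 library. Neurl3 was 0.02 with limma voom and -0.11 to 0.04 without 1 library. Ahr was -0.10 to 0.07 and Arnt -0.05 to 0.06 without 1 library. The other named genes kept their sign in every alternative that tested them, apart from Lrp2, Umod, Csf1r, Adgre1, Me1, Cbr3 and Acadm, which were not followed across alternatives. The ratio of median SDs, 1.49, stayed between 1.37 and 1.63. No paired analysis was possible because the labels give no replicate numbers. Depth limits genes under about 1 CPM, such as Cyp1a2 and Gm8947.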

Other observations

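In several gene groups with no place above, no member was called in either fit. Medians were 0.00 over 24 cell cycle genes, 0.03 over 18 endothelial, -0.07 over 12 podocyte, -0.04 over 21 fibroblast and matrix, -0.14 over 12 thick ascending limb and 0.02 over 11 collecting duct principal cell genes. In other groups some members were called in the 40-library fit. Of 21 organic ion and drug transporters (median -0.30) it called 6 lower and 2 higher, and unadjusted 4 were lower and 6 higher. Of 31 sterol and fatty acid synthesis genes (median -0.15) 22 were negative and it called 1, the desaturase Sc5d, lower. Of 24 chemokine and complement genes tested on 10 libraries (median -0.21) it called 2 lower and 1 higher, and of 18 circadian clock genes (median -0.07) 1 lower, Arntl. Over all genes that fit called 1.19% higher and 1.52% lower, and 5.4% and 4.59% had an unadjusted p under 0.05 in the 10-library fit. Intercalated cell genes had a median of 0.24 over 14, with 4 higher unadjusted, and the anion exchanger Slc26a4 (pendrin) was at 98.4 to 166 CPM against 99.0 to 108 (0.41 ± 0.12, adjusted p = 0.299, 0.00471 in the 40-library edgeR fit). Klk1, the tissue kallikrein, was at 774 to 996 CPM against 961 to 1364 (-0.40 ± 0.11), and Ace, angiotensin-converting enzyme, at 40.3 to 115 against 126 to 190 without overlap (-0.92 ± 0.23, adjusted p = 0.285).

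Among 22 tubular injury genes the median was 0.24, with 9 higher and 1 lower unadjusted (5.4% and 4.59% of all genes). The 40-library fit called 4 of them higher, Spp1 included, and 0 lower (1.19% and 1.52% of all genes). The fibrinogen chain Fgg had 5.79, 10.7, 71.6, 45.5 and 26.3 CPM at 30 µg/kg against 7.02 to 9.33 (1.96 ± 0.63, adjusted p = 0.38). The injury marker Havcr1 stayed at or under 1.60 CPM at 30 µg/kg and was at 0.864 to 1.98 at 10 µg/kg. Lcn2, another injury marker, had 1.82, 2.60, 6.16, 6.79 and 5.95 CPM against 2.17 to 3.34 (0.84 ± 0.33, adjusted p = 0.424). C3, the central complement protein, had 77.5, 107, 449, 372 and 267 CPM against 44.0 to 88.6 (2.05 ± 0.52, adjusted p = 0.301, 0.00338 in the 40-library edgeR fit). All 15 tested fat markers were positive (median 0.72, 5 higher unadjusted, beside 5.4% of all genes), and Adipoq, made by adipocytes, was at 16.3 to 36.0 CPM against 4.47 to 16.9 (1.20 ± 0.34, adjusted p = 0.319). The brown fat gene Ucp1 was at 54.3 to 120 CPM against 10.3 to 115, and 4.19 to 15.9 with vehicle. Whether perirenal fat in the sample has a part in any gene above was not tested. Red blood cell genes summed to 1466 CPM in replicate 1 at 30 µg/kg and 165 to 648 in the other 4, against 430 to 628.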
